A study of Mus musculus with 6 samples.

Results

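The transcription factors described here were the 4 genes of the Fos family (Fos, Fosb, Fosl1 and Fosl2), the 3 genes of the Jun family (Jun, Junb and Jund), Batf and Batf3 of the Batf family, and Irf4. They were selected by gene symbol, with earlier results of these data known, and they are 10 of the 29393 genes in the count table. The cells were cDNT, double negative T cells converted from CD4+CD25- T cells of C57BL/6 mice in coculture with IL-2 and mature dendritic cells. According to the labels the mice were adult and the tissue was spleen. RNA was sequenced from 3 libraries of cDNT kept W/ IL-10 (50 ng/ml, 24 h) and from 3 libraries kept W/O IL-10. The comparison addressed how IL-10, a cytokine that damps immune responses, alters the transcriptome of these regulatory T cells. All cells were sorted before the culture. The methods also name anti-CD3/CD28 antibodies for the culture with IL-10, the labels do not name them, and neither states whether the W/O IL-10 cells received them. Nothing states that the libraries came from separate cultures or animals, so the p-values measure the spread between these libraries, which may be technical.

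AP-1 is a dimer of basic leucine zipper proteins. Jun proteins pair with each other or with a Fos protein, whereas Fos proteins need a Jun partner to bind DNA. In T cells the receptor and CD28 raise AP-1 activity, and AP-1 then acts with NFAT on cytokine genes. BATF and BATF3 also pair with Jun proteins, and these dimers join IRF4 on composite DNA elements. BATF with JUNB or JUND and IRF4 is known for its part in Th17 cells, effector CD8+ T cells and regulatory T cells. Fos, Junb and other members are also immediate-early genes, whose mRNA rises and decays quickly after a stimulus.

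Junb rose W/ IL-10, Batf rose by a smaller factor, and Fos had the largest fold of the 10 genes without passing the test. Junb increased 1.53-fold and Batf 1.39-fold. Fos was 1.84-fold higher at an adjusted p of 0.102. Irf4 was lower on average, with groups that overlapped. The other 6 genes showed log2 differences of -0.41 to 0.09, and their groups overlapped. In bulk libraries of this kind, fewer cells of a type and less RNA per cell cannot be told apart.

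Levels are given as CPM, counts scaled to library size. All 10 genes had at least 10 counts in at least 3 libraries and entered the test, which covered 14916 genes (edgeR's quasi-likelihood test, Benjamini-Hochberg adjustment). With an adjusted p under 0.05 and a fold of at least 1.5, 1 of the 10 was higher W/ IL-10 and 0 were lower. Over all tested genes 0.778% were called higher and 0.677% lower by the same criteria. At an adjusted p under 0.05 and any fold, 2 of the 10 were higher and 0 were lower, against 1.21% and 0.979% of all tested genes. All 3 W/ IL-10 libraries lay above all 3 W/O IL-10 libraries for 3 of the 10, and the reverse held for 0, against 11.3% and 11.2% of all tested genes. DESeq2 gave an adjusted p under 0.05 for Junb, Batf and Fos, limma-voom for Junb and Batf, and neither for a lower member. At an unadjusted p under 0.05 edgeR listed 3 members as higher and 1, Irf4, as lower, against 7.58% and 7.17% of all tested genes. The median log2 difference over the 10 was -0.04, and over all tested genes it was 0.006. With 4 positive and 6 negative values, the 10 genes did not move one way.

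**Figure D1:**
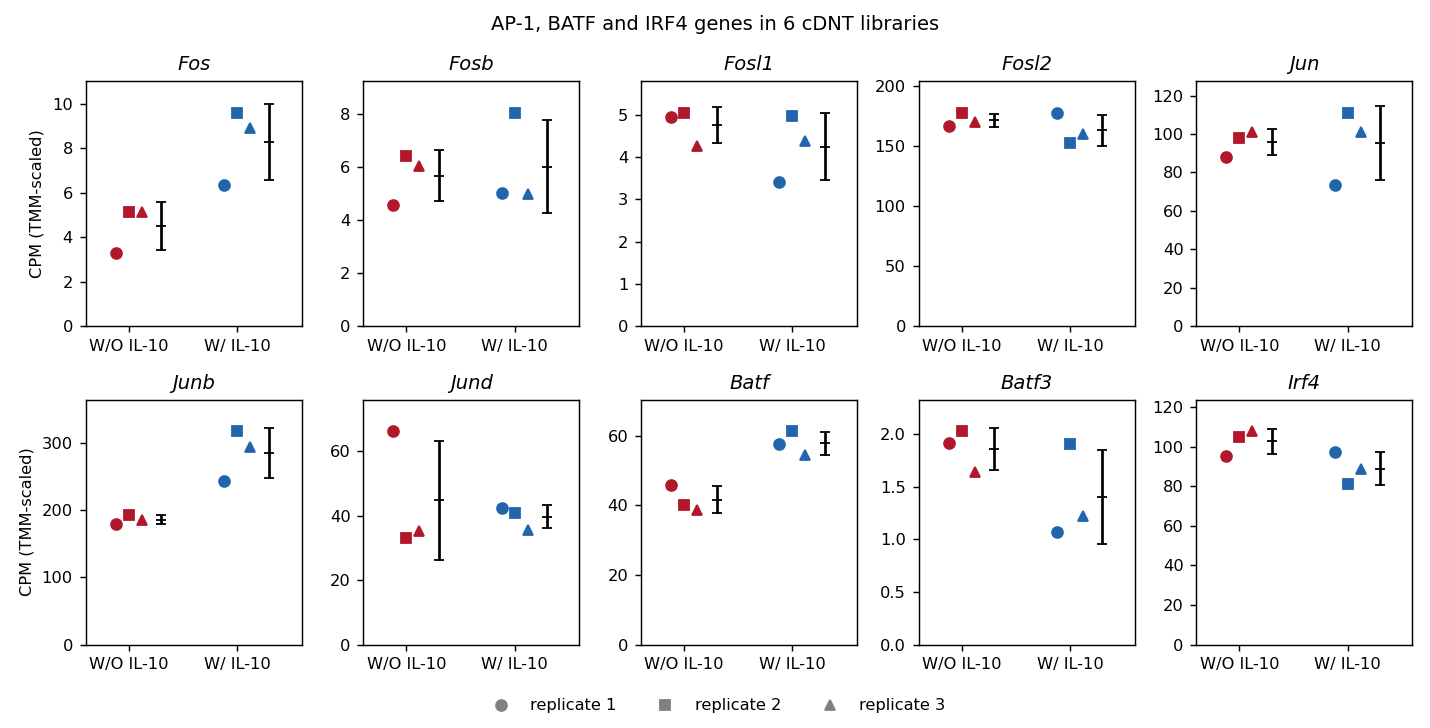
Level of each of the 10 genes in CPM in each library, by group; points are single libraries and the bar marks the group mean with its SD. The groups of Junb, Batf and Fos do not overlap, and 1 W/O IL-10 library of Jund stands above the rest at 66.2 CPM.

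**Figure D2:**
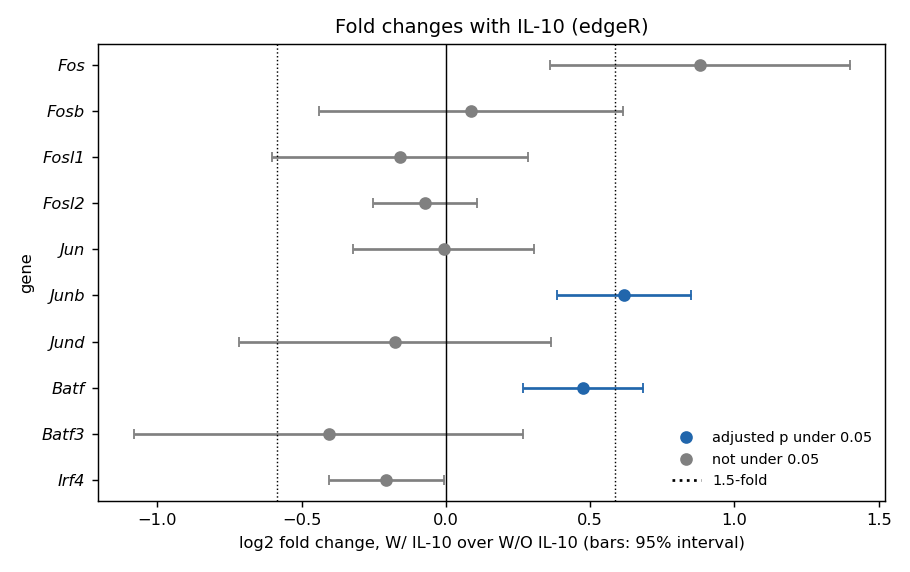
The log2 difference W/ IL-10 minus W/O IL-10 of each of the 10 genes with its 95% confidence interval. Junb (0.62), Batf (0.48) and Fos (0.88) lie above 0 with their intervals, Irf4 lies below 0 at -0.21 with an interval of -0.41 to -0.01, and the other 6 intervals include 0.

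Total counts were 21619420 to 23967088 per library. The floor of 3 counts corresponded to 0.123 to 0.146 CPM, which covers counting error only, and every member exceeded it in every library. The libraries held T cell mRNA, with the 10 T cell markers summing to 2317 to 2752 CPM W/O IL-10 and 2960 to 3033 CPM W/ IL-10. None of these 10 passed the adjusted threshold with edgeR or limma-voom, 4 had an unadjusted p under 0.05, DESeq2 listed 1 (Lck), and all 10 differences were positive. Cd4 had 8 to 38 counts, whereas Cd8a was present at 95.8 to 119.1 CPM W/O IL-10 and at 138.6 to 168.6 CPM W/ IL-10. Cd8a (log2 0.56, adjusted p = 0.0369) and Cd8b1 (log2 0.67, adjusted p = 0.0306) both rose. With a library left out, the adjusted p of Cd8a reached 0.191 (above 0.05 without W/O IL-10 replicate 2 or W/ IL-10 replicate 1 or 3) and that of Cd8b1 0.178 (also without W/ IL-10 replicate 2). The Cd8a and Cd8b1 mRNA goes against a strict reading of the double negative label, but that label is defined by surface protein. Surface protein was not measured in these libraries. The paper reports that cDNT were sorted by flow cytometry and that transferred cDNT remained without CD4 and CD8 in vivo.

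Promoters are shown for the 3 genes with separated groups and for Jun, whose promoter carries the well-known variant of the site. The sequences are RefSeq's GRCm38.p6, read 5′ to 3′ on the gene's strand up to the annotated start. For Batf the stretch ends earlier, where the GENCODE gene begins. Capitals mark a match to TGACGT, the core of the cyclic AMP response element (CRE), or to TGACATCA, a related site. They lie at chr12:85473640-85473889 (Fos, plus strand), chr12:85686470-85686668 (Batf, plus strand), chr4:95052223-95052472 (Jun, minus strand) and chr8:84978749-84978998 (Junb, minus strand).
Fos: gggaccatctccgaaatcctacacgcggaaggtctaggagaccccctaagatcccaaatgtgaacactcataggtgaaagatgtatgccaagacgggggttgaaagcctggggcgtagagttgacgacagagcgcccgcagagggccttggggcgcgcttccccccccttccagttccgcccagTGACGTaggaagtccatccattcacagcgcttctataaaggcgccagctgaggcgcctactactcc
Batf: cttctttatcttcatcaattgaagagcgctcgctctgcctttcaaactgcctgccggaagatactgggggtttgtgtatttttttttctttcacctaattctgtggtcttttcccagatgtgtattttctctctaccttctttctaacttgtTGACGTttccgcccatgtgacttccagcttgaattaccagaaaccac
Jun: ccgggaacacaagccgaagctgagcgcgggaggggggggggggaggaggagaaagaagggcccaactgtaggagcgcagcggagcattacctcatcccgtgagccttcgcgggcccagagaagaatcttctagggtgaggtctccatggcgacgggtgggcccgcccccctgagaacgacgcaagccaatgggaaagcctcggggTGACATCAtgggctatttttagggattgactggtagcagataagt
Junb: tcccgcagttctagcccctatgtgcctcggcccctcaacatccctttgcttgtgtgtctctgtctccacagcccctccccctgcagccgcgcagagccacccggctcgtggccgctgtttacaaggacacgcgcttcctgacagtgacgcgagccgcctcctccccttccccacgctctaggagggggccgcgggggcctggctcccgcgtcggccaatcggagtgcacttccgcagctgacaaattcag
Counted from RefSeq's start site, the match began 66 bases upstream in Fos, 98 bases upstream in Batf and 45 bases upstream in Jun. Junb held no match in this window and was the richest of the 4 in G and C, at 66.4%, with 20 CpG dinucleotides.

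Of the 10 genes, 9 had a promoter in the table and Fosl1 had none. Both strands were searched, from 250 bases before RefSeq's start site to shortly after it. Sites farther upstream were not searched. The AP-1 site TGANTCA was found in 0 of the 9 and in 7.81% of all 32851 promoters. The full CRE, TGACGTCA, was in 0 of the 9 and 1.79% of all, and the CArG box, the site of serum response factor, in 0 of the 9 and 1.63% of all. A STAT-type site, TTCNNNGAA, was in 1 of the 9 (Batf3, 239 bases before RefSeq's start) and in 8.3% of all. RefSeq's start differed from the GENCODE gene start in some members. The upstream stretches of Batf3, with its match, and of Fosl2 lie inside the GENCODE gene. That of Jund ends at chr8:70697738, before the gene starts at 70698949. TGACGT, which every full CRE contains, and TGACATCA were added after the sequences had been seen. They matched 7.51% and 3.62% of all promoters, and 2 and 1 of the 9. A match is a run of letters, and no binding was measured.

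Junb encodes the Jun protein that pairs with BATF and with Fos proteins. Its gene lies at chr8:84974484-84978718 on the minus strand (GRCm38). Junb measured 179.3, 192.3 and 185.2 CPM in the W/O IL-10 libraries. It measured 243.5, 316.6 and 294.0 CPM in the W/ IL-10 libraries. The groups did not overlap, and W/ IL-10 replicate 1 was the lowest of the higher group. The mean went from 185.6 ± 6.51 to 284.7 ± 37.4 CPM (SD, n = 3). This was a log2 difference of 0.62 (SE 0.10), a 1.53-fold increase with an interval of 1.31 to 1.80 (adjusted p = 0.0236, edgeR).

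The direction of Junb held when each library was left out in turn, at log2 0.53 to 0.72. Its call held without W/ IL-10 replicate 1. Without W/O IL-10 replicate 1 the adjusted p was 0.0106 and the log2 difference of 0.58 was just under a 1.5-fold change. Without W/O IL-10 replicate 2, W/O IL-10 replicate 3, W/ IL-10 replicate 2 or W/ IL-10 replicate 3 the adjusted p was 0.0935, 0.0689, 0.0764 or 0.137, respectively. Of the Junb exon bases, 7.52% lie under the opposite strand gene Prdx2, whose own log2 difference was 0.06 (adjusted p = 0.817).

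Jun, the founding member of the family, lies at chr4:95049034-95052222 on the minus strand. Jun measured 88.2, 97.8 and 101.3 CPM W/O IL-10. It measured 73.7, 111.0 and 100.9 CPM W/ IL-10. The groups overlapped fully, and the lowest and the highest value were both W/ IL-10. The log2 difference was -0.01 (SE 0.14), with an interval of -0.32 to 0.31 (adjusted p = 0.985). Its sign turned with the library left out, from -0.13 without W/ IL-10 replicate 2 to 0.15 without W/ IL-10 replicate 1.

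Jund encodes the Jun protein that resting cells typically hold. The gene is a single exon at chr8:70698949-70700616 on the plus strand. Jund measured 66.2, 33.0 and 35.4 CPM W/O IL-10 and 42.5, 40.9 and 35.7 CPM W/ IL-10. W/O IL-10 replicate 1 was far above the other libraries, and without it the remaining W/O IL-10 values lay below all W/ IL-10 values. The log2 difference was -0.18 (SE 0.24, adjusted p = 0.779) with all libraries and 0.20 (adjusted p = 0.357) without W/O IL-10 replicate 1. Jund has the highest GC content of the 10 genes, at 67.1% of its exon bases. For the 493 tested genes with a GC content above 60%, the median log2 deviation from the mean over libraries was 0.15 in W/O IL-10 replicate 1 and -0.12 in W/ IL-10 replicate 1. The part of this deviation in the Jund value was not tested gene by gene. A fit with GC and length correction gave 0.03 for Jund and 0.75 for Junb, whose GC content is 62.6%. In addition, 52.6% of the Jund exon bases lie under an opposite strand gene, and the strand setting of the counting is not given in the sources used here.

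The Jun family can be compared on a scale per length, CPM per kilobase of exon. Junb supplied 53.7%, 62.4% and 60.3% of the family's summed level W/O IL-10, and 68.5%, 69.9% and 70.7% W/ IL-10. The groups did not overlap. The ratio of Junb to Jun was 2.82, 2.72 and 2.53 W/O IL-10 and 4.58, 3.95 and 4.04 W/ IL-10. The summed family level went from 133.5 to 145.3 CPM per kilobase W/O IL-10 to 154.4 to 197.0 W/ IL-10. These shares follow from the values above and were not tested separately.

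**Figure D3:**
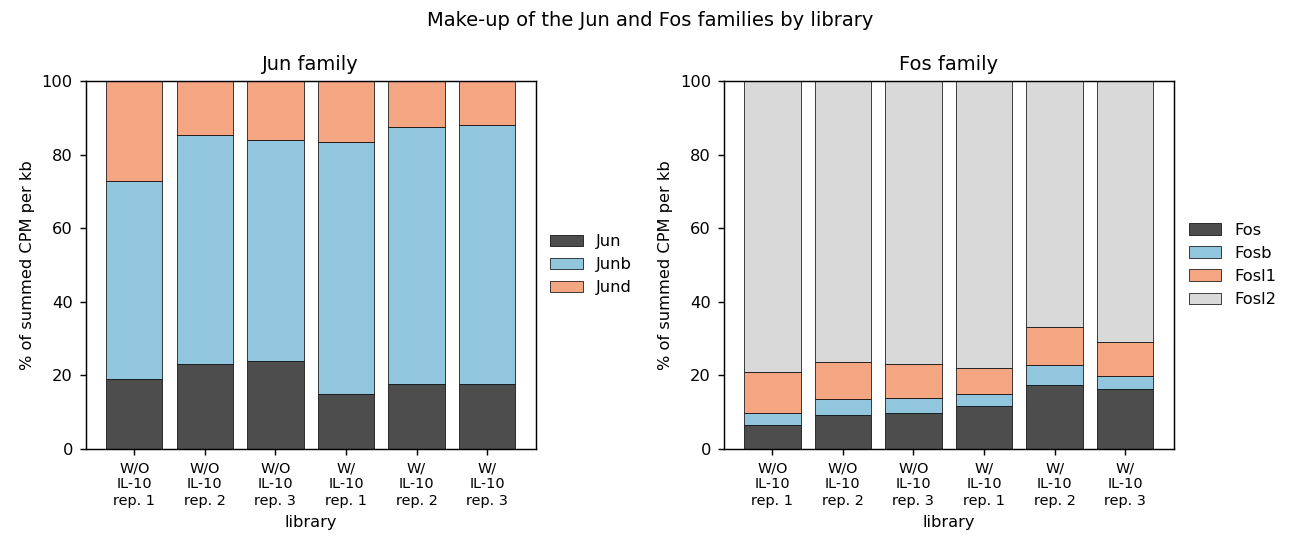
Makeup of the Jun and Fos families in each library, as each gene's percent of its family's summed level in CPM per kilobase of exon. The Junb share is 53.7% to 62.4% W/O IL-10 and 68.5% to 70.7% W/ IL-10, and the Fos share is 6.38% to 9.55% W/O IL-10 and 11.5% to 17.3% W/ IL-10.

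Fos, the classical partner of Jun and a short-lived immediate-early product, lies at chr12:85473890-85477273 on the plus strand. Fos measured 3.27, 5.13 and 5.13 CPM W/O IL-10. It measured 6.37, 9.59 and 8.90 CPM W/ IL-10. All W/ IL-10 libraries were above all W/O IL-10 libraries, and replicate 1 was the lowest in both groups. These levels rested on 80, 124 and 119 counts W/O IL-10 and on 131, 216 and 203 counts W/ IL-10. The log2 difference was 0.88 (SE 0.23), a ratio of 1.84 with an interval of 1.29 to 2.64 (adjusted p = 0.102, edgeR). The difference ranked above 98.2% of tested genes, but it did not pass the adjusted threshold. This depended on the setting, since DESeq2 gave an adjusted p of 0.0147, limma-voom 0.108, edgeR without the count filter 0.00104, and edgeR with both replicates 1 left out 0.0136.

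Fosl2 is the Fos family gene with the highest level in these cells. Fosl2, at chr5:32135801-32157842 on the plus strand, measured 166.9, 177.6 and 170.2 CPM W/O IL-10 and 177.4, 152.3 and 160.0 CPM W/ IL-10. The groups overlapped, and the lowest 2 libraries were both W/ IL-10. Its log2 difference was -0.07 (SE 0.08), with an interval of -0.25 to 0.11 (adjusted p = 0.722). This was the narrowest interval of the 10 genes.

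Fosb and Fosl1, the remaining Fos family genes, stood at a few CPM. Fosb, at chr7:19302696-19310051 on the minus strand, measured 4.58, 6.41 and 6.03 CPM W/O IL-10 and 5.004, 8.04 and 4.995 CPM W/ IL-10. Fosl1, at chr19:5447547-5455946 on the plus strand, measured 4.94, 5.05 and 4.26 CPM W/O IL-10 and 3.40, 4.97 and 4.38 CPM W/ IL-10. Both overlapped between the groups. The intervals of the log2 difference were wide, from -0.44 to 0.61 for Fosb (adjusted p = 0.902) and from -0.60 to 0.28 for Fosl1 (adjusted p = 0.755). Of the Fosl1 exon bases, 57.2% lie under the opposite strand gene Ccdc85b, so without strand its counts are uncertain.

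Per length, Fosl2 supplied 76.3% to 79.1% of the Fos family level W/O IL-10 and 66.8% to 78.0% W/ IL-10, and these ranges overlapped. Fos supplied 6.38%, 9.07% and 9.55% W/O IL-10 and 11.5%, 17.3% and 16.3% W/ IL-10, without overlap. Fosl2 exceeded Fos by 12.4, 8.41 and 8.07 times W/O IL-10 and by 6.77, 3.86 and 4.37 times W/ IL-10. The summed family level stayed within 21.8 to 24.0 CPM per kilobase over all 6 libraries.

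Batf encodes a basic leucine zipper protein without a transactivation domain, which recruits IRF4 in T cells. The gene lies at chr12:85686669-85709087 on the plus strand. Batf measured 45.9, 40.2 and 38.6 CPM W/O IL-10. It measured 57.8, 61.2 and 54.4 CPM W/ IL-10. The groups did not overlap, and the spread was similar in both, at 41.6 ± 3.86 and 57.8 ± 3.41 CPM (SD, n = 3). The difference was 0.48 on the log2 scale (SE 0.09), a 1.39-fold increase with an interval of 1.204 to 1.61 (adjusted p = 0.0390, edgeR). Batf kept the direction at log2 0.41 to 0.54 when a library was left out. The adjusted p was 0.00441 without W/O IL-10 replicate 1. It was 0.146 without W/O IL-10 replicate 2, 0.116 without W/O IL-10 replicate 3, and 0.138, 0.131 and 0.137 without W/ IL-10 replicate 1, 2 and 3, respectively.

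Batf3, a paralog best known for the development of cross-presenting dendritic cells, had the fewest counts of the 10 genes. Batf3, at chr1:191097847-191108945 on the plus strand, measured 1.92, 2.03 and 1.64 CPM W/O IL-10 and 1.07, 1.91 and 1.23 CPM W/ IL-10. The groups overlapped through W/ IL-10 replicate 2. On the log2 scale the difference was -0.41 (SE 0.30), with an interval of -1.08 to 0.27 (adjusted p = 0.577). With 22 to 49 counts per library, counting error alone was 16.3% of the level. Batf was 22.6 to 27.2 times Batf3 per length W/O IL-10 and 36.4 to 61.4 times W/ IL-10.

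Irf4 encodes the factor that binds with BATF and Jun dimers and whose level follows the strength of T cell receptor signals. The gene lies at chr13:30749226-30766976 on the plus strand. Irf4 measured 95.4, 104.6 and 107.6 CPM W/O IL-10. It measured 97.4, 80.9 and 88.4 CPM W/ IL-10. The groups overlapped because W/ IL-10 replicate 1 was above W/O IL-10 replicate 1, while the other W/ IL-10 libraries were below all W/O IL-10 libraries. The log2 difference was -0.21 (SE 0.09), with an interval of -0.41 to -0.01 (adjusted p = 0.321, edgeR). With both replicates 1 left out, a choice made after seeing the data, it was -0.33 (adjusted p = 0.0367).

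Dendritic cells and B cells also express Irf4, and their markers varied between the libraries. The 6 B cell markers summed to 63.4, 157.3 and 106.7 CPM W/O IL-10 and to 62.8, 108.7 and 61.3 CPM W/ IL-10. All 6 differences were negative, and 0 passed the adjusted threshold with edgeR, DESeq2 or limma-voom, with 0 unadjusted edgeR p under 0.05. Of 12 dendritic cell markers, 11 were in the table and 8 were tested. The list summed to 210.5 to 316.2 CPM W/O IL-10 and 164.7 to 245.7 CPM W/ IL-10, with Ccl17, Flt3 and Clec9a at 0 in at least 1 library. Of the 8, 1 rose (Itgax, log2 1.09, adjusted p = 0.00383) and 0 fell by edgeR or limma-voom, and 6 had an unadjusted edgeR p under 0.05. DESeq2 listed Itgax as higher and Cd83 and Fscn1 as lower. Itgax and Xcr1 (log2 0.60) were above the W/O IL-10 range in every W/ IL-10 library, and Ccl22 (-2.67), Fscn1 (-1.71), Cd83 (-0.93) and Zbtb46 (-0.44) were below it, with adjusted edgeR p of 0.0840 to 0.212 for the last 4. The 7 macrophage and monocyte markers summed to 5.08 to 12.2 CPM W/O IL-10 and 4.97 to 5.30 CPM W/ IL-10. C1qa, C1qb and Fcgr1 were at 0 in at least 1 library, and 0 of the 3 tested passed with edgeR, DESeq2 or limma-voom (1 at an unadjusted edgeR p under 0.05). The part of these cells in the Irf4 and Batf3 values was not tested.

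Per length, Junb was the most abundant member in both groups, at 80.7 ± 2.83 CPM per kilobase W/O IL-10 and 124 ± 16.3 CPM per kilobase W/ IL-10 (SD, n = 3). W/O IL-10 it was followed by Jun (30.03), Batf (29.6), Jund (26.9) and Irf4 (20.9), each of which overlapped with its neighbour. Fosl2 followed at 17.7, below every value of Irf4. Fosl1 (2.34) and Fos (1.92) overlapped with each other, as did Batf3 (1.17) and Fosb (0.909). The first 6 genes ranked above 79.1% or more of tested genes, and the last 4 above 20.6% to 34.6%.

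W/ IL-10, Batf (41.1 CPM per kilobase) lay above Jun (29.9) in every library, and Jun overlapped with Jund (23.8). Irf4 (18.1) and Fosl2 (16.9) overlapped as well. Fos (3.52) lay above Fosl1 (2.09), which lay above Fosb (0.963), and Fosb overlapped with Batf3 (0.878). The ratio of Batf to Irf4 was 1.68, 1.34 and 1.25 W/O IL-10 and 2.07, 2.64 and 2.15 W/ IL-10, without overlap.

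Proteins that share partners with AP-1 were examined as a list of 9 genes, of which 8 were tested and Batf2 had 0 to 6 counts. None was higher and 1 was lower, Maf, a basic leucine zipper factor of Il10 transcription in T cells. Maf measured 72.6, 79.7 and 69.4 CPM W/O IL-10 and 56.4, 51.1 and 47.6 CPM W/ IL-10. The groups did not overlap, and Maf fell by 0.52 on the log2 scale (SE 0.09, adjusted p = 0.0273, edgeR), less than 1.5-fold. Its adjusted p reached 0.160 with a library left out, and was above 0.05 without W/O IL-10 replicate 2 or any one W/ IL-10 library. Atf3, a stress-induced repressor, measured 6.25, 8.27 and 5.69 CPM W/O IL-10 and 4.37, 4.17 and 3.68 CPM W/ IL-10, and did not pass with edgeR (log2 -0.73, adjusted p = 0.106), whereas DESeq2 listed it as lower. The median log2 difference of the 8 was -0.11.

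The other interferon regulatory factors and the PU.1-type factors formed a list of 10 genes. All 10 differences were negative, with a median of -0.11. None passed the adjusted threshold with edgeR or limma-voom, 2 had an unadjusted p under 0.05 and DESeq2 listed 1, Irf7. Irf7, the factor of type I interferon induction, measured 47.7, 46.3 and 48.9 CPM W/O IL-10 and 31.4, 37.9 and 38.5 CPM W/ IL-10 (log2 -0.40, SE 0.10, adjusted p = 0.0785). Spi1, which encodes PU.1, measured 6.13, 5.42 and 3.23 CPM W/O IL-10 and 2.67, 3.02 and 2.80 CPM W/ IL-10 (log2 -0.80, SE 0.25, adjusted p = 0.178). Neither overlapped between the groups. Irf9 had a log2 difference of -0.14 (adjusted p = 0.422).

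The kinases and regulators of AP-1 (19 genes, among them the ERK, JNK and p38 kinases, Srf and Creb1) gave a median log2 difference of 0.02. Of these, 0 passed with edgeR, DESeq2 or limma-voom, and 0 had an unadjusted p under 0.05. The smallest p belonged to Fbxw7, a ubiquitin ligase subunit that targets Jun (log2 -0.18, adjusted p = 0.386), Mapk14, which encodes p38 alpha (0.10, adjusted p = 0.566), and Elk4, a partner of serum response factor (0.10, adjusted p = 0.572). Phosphorylation was not measured.

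Of 13 immediate-early and handling genes, 0 were higher and 1 was lower by edgeR, whereas DESeq2 listed 1 as higher and 1 as lower. Nr4a1, an orphan nuclear receptor induced by the T cell receptor, measured 88.9, 88.4 and 81.4 CPM W/O IL-10 and 52.2, 67.3 and 54.3 CPM W/ IL-10. It fell by 0.57 on the log2 scale (SE 0.10, adjusted p = 0.0306), opposite in sign to Junb and Fos. The adjusted p reached 0.184 with a library left out, and only the fits without W/O IL-10 replicate 1 or W/ IL-10 replicate 2 kept it under 0.05. Zfp36, which encodes an mRNA decay factor, was higher in every W/ IL-10 library (log2 0.35, adjusted p = 0.0671, edgeR), and DESeq2 listed it as higher. Hspa1b, a heat shock gene, had a log2 difference of -0.74 (adjusted p = 0.264, edgeR). The summed level of the 13 genes was 1086 to 1188 CPM W/O IL-10 and 1143 to 1210 CPM W/ IL-10, which overlapped.

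Target genes of AP-1, BATF and IRF4 in T cells formed a list of 18, of which 16 were tested, with Il21 and Bcl2a1b below the count minimum. By edgeR, 4 were higher, 1 was lower and 11 did not pass, and the median log2 difference was -0.19. At the same adjusted p under 0.05, 1.21% of all tested genes were higher and 0.979% lower. DESeq2 also listed Il23r as lower. By edgeR Il23r did not pass (log2 -0.79, adjusted p = 0.0898), and its groups did not overlap. Gzmb, the cytotoxic protease granzyme B, measured 2312, 2365 and 2239 CPM W/O IL-10 and 5106, 5342 and 5122 CPM W/ IL-10. It rose by 1.17 on the log2 scale (SE 0.08, adjusted p = 0.000527), and its spread within each group was small against the difference. Ctla4, an inhibitory receptor, measured 56.0, 76.2 and 93.5 CPM W/O IL-10 and 172.7, 179.7 and 182.4 CPM W/ IL-10 (log2 1.25, SE 0.16, adjusted p = 0.00832).

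The cytokine genes of this list moved in both directions. Ifng measured 10.6, 9.97 and 13.1 CPM W/O IL-10 and 27.8, 23.9 and 25.4 CPM W/ IL-10 (log2 1.19, SE 0.13, adjusted p = 0.00383). Il10 itself measured 0.449, 0.538 and 0.302 CPM W/O IL-10 and 2.43, 1.38 and 1.67 CPM W/ IL-10 (log2 2.08, SE 0.38, adjusted p = 0.0318). Il17a, a cytokine for which BATF and IRF4 are needed in Th17 cells, measured 74.4, 81.8 and 60.2 CPM W/O IL-10 and 32.2, 44.4 and 27.1 CPM W/ IL-10. Il17a fell by 1.06 on the log2 scale (SE 0.18, adjusted p = 0.0247), opposite in sign to Batf. All 5 genes had groups without overlap, which adds little because they were picked for an adjusted p under 0.05. Of the 16 tested targets, 4 were separated upward and 2 downward, against 11.3% and 11.2% of all tested genes. With each library left out in turn, Gzmb and Ifng stayed under an adjusted p of 0.05 in 6 of 6 fits. Ctla4 did so in 4 of 6, with 0.0704 as its highest value, losing the call without W/ IL-10 replicate 1 or 3. Il17a did so in 3 of 6 (highest 0.133), losing it without W/O IL-10 replicate 2 or W/ IL-10 replicate 1 or 3. Il10 did so only without W/O IL-10 replicate 1 (highest 0.135), and its adjusted p was 0.0579 with both replicates 1 left out.

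**Figure D4:**
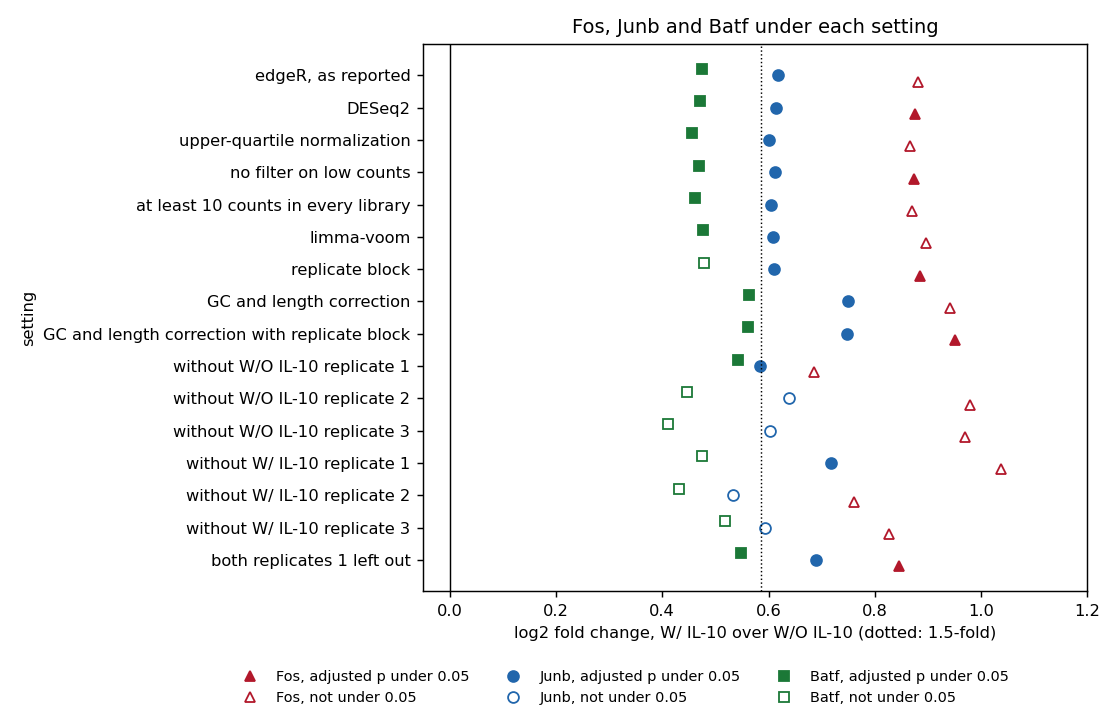
The log2 difference W/ IL-10 minus W/O IL-10 of Fos, Junb and Batf under each processing setting, including each library left out in turn. Junb (0.53 to 0.72 with a library left out), Batf (0.41 to 0.54) and Fos (0.69 to 1.04) stay above 0 in every setting.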

How the data were processed

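RNA of 6 cDNT libraries (3 W/O IL-10, 3 W/ IL-10) was sequenced on an Illumina HiSeq. The authors deposited 1 table of unnormalized read counts per Ensembl gene. The processing notes name HISAT2, HTSeq and GRCm38, whereas the methods name TopHat, Cufflinks and UCSC annotation. Versions and strand setting are not given in the sources used here. The labels and the methods also name different library kits, and the design text speaks of duplicates while 3 libraries per group are listed. Columns without a sample numbered 0.

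Differences were tested on the counts with edgeR 4.0.16 in R 4.3.3 (TMM factors 0.953 to 1.03, glmQLFit and glmQLFTest), with all 6 libraries and no block. Genes needed 10 counts in 3 or more libraries, which left 14916, and p-values were adjusted over these by the Benjamini-Hochberg method. Genes were called at an adjusted p under 0.05 and a fold of at least 1.5. CPM used TMM-scaled library sizes. CPM per kilobase divided CPM by the merged exon length in GENCODE M21, which held 29332 of the 29393 identifiers. No pair of libraries was identical. No 50-base stretch of a member occurred in the same orientation in transcripts of another gene, and matches in the opposite orientation were not counted. Alternatives were DESeq2 1.42.0, limma-voom (limma 3.58.1), upper-quartile normalization, other count filters, GC and length splines with 5 degrees of freedom, a replicate block, and each library left out. Leaving out both replicates 1 was added after seeing the data. The steps were tested on simulated counts at an adjusted p under 0.05. Of simulated 1.5-fold changes 26% were recovered, and 10.3% of the calls were false. For simulated 2-fold changes these shares were 68% and 5.56%.

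The members and lists were chosen with earlier results of these data known. All 10 members are named. From each gene list, those with an adjusted p under 0.05 are named, or the 3 of smallest p where fewer passed. Markers of cell types are given as counts and ranges. One gene of the marker lists was left out of its list and is not reported here. Figures were drawn with matplotlib 3.10.9.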

Additional observations from a re-analysis of the deposited data

How the results depend on the processing

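Junb, Batf and Fos kept a positive and Irf4 and Batf3 a negative log2 difference under every alternative run. The number of genes called, 217, became 359 with DESeq2, 639 without a filter on low counts, 354 with GC and length correction and the replicate block, and 35 to 254 with a library left out. Members called were 1 (Junb), 2 (Junb and Fos) with DESeq2, without a filter, with the replicate block, with GC correction and the block, and with both replicates 1 left out, and 0 to 1 with a single library left out. Signs turned only in genes that did not pass. Fosb ranged from -0.18 to 0.20 and Jun from -0.13 to 0.15 with a library left out, and Jund from -0.36 to 0.20. GC and length correction gave 0.0169 for Fosl2, 0.0680 for Jun and 0.0342 for Jund, and 0.0139, 0.0581 and 0.0640 with the block added. With both replicates 1 left out, Fosl1 was at 0.00162, Jun at 0.0853 and Jund at 0.16. The cause of these changes was not tested. Deviations of same-numbered libraries correlated at 0.0524, -0.0573 and 0.114, against a mean of -0.0175 for libraries of different number. These few values cannot decide whether the replicate numbers pair the libraries. Under the replicate block 196 genes were called, and the adjusted p was 0.0508 for Batf, 0.0434 for Fos and 0.0565 for Il10. Counting error limits Batf3 (22 to 49 counts), Fosl1, Fosb and Fos.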

Other observations

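Fos and Batf both lie on chromosome 12, with other genes between them, and both were higher in every W/ IL-10 library. The end of Fos and the start of Batf lie 209 kb apart, with 4 annotated genes between them, of which 3 are in the count table and 2 were tested. Jdp2, which encodes a basic leucine zipper repressor that pairs with Jun proteins, is one of them. It measured 73.7, 88.2 and 83.9 CPM W/O IL-10 and 54.6, 77.5 and 59.2 CPM W/ IL-10. The groups overlapped through W/ IL-10 replicate 2, and the log2 difference was -0.36 (SE 0.13, adjusted p = 0.241, edgeR). The other, Gm47863, had a log2 difference of -0.13 (adjusted p = 0.896). This interval was chosen after the values had been seen.

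The library with the highest or lowest value of each member was counted within each group, without a share over all tested genes for comparison. W/ IL-10 replicate 2 was the highest of its group for 7 of the 10 genes and W/ IL-10 replicate 1 the lowest for 5. Among the W/O IL-10 libraries, replicate 2 was the highest for 6 and replicate 1 the lowest for 6. The remaining counts were 0 to 3 of the 10.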
